A study of Mus musculus with 12 samples.

Results

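The gate effect of an IL-25 reporter, meaning the difference in expression between cells that carry it and cells that do not, was compared between mouse gallbladder and small intestine, gene by gene. Bulk RNA was sequenced from 4 groups of 3 libraries, all from Flare25 mice, a strain in which cells that transcribe Il25 become red fluorescent. Live single EpCAM+ epithelial cells were released with EDTA and DTT and sorted into IL-25+ (RFP+) and IL-25- cells, from the gallbladder (GB-pos and GB-neg) and from the proximal small intestine (SI-pos and SI-neg). The treatment protocol describes all mice as being in homeostasis, but the sample labels of the 6 gallbladder libraries, and of none from the small intestine, also list HDM AF647 given 1 day before collection. The tissue and that treatment cannot be told apart, and every difference between tissues below includes both. The labels give no age and do not say whether the replicates came from separate mice, so the p-values measure the spread between libraries, which may be technical.

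The quantity described is the interaction, the log2 gate effect in gallbladder minus the log2 gate effect in small intestine. A positive value means that a gene was relatively higher in the IL-25+ cells of the gallbladder, and a negative value that it was relatively higher in the IL-25+ cells of the small intestine. It was computed in all 12 libraries for the 16636 genes that passed the filter on low counts, out of 43432 in the table. A gene is called at an adjusted p under 0.05 (edgeR quasi-likelihood test, Benjamini-Hochberg adjustment over all tested genes), and levels are counts scaled to library size (CPM), listed for libraries 1, 2 and 3 of a group in that order.

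Tuft cells are rare chemosensory cells of mucosal epithelium that detect luminal metabolites through taste-type signalling. In the small intestine they are the main source of IL-25, which activates group 2 innate lymphoid cells, and the IL-13 that those cells return acts on epithelial progenitors. The gallbladder epithelium, a layer of cholangiocytes bathed in concentrated bile, also holds tuft cells, and its other cells differ from the absorptive, secretory and stem cells that surround intestinal tuft cells. A gate effect therefore compares a reporter-positive population with a different background of epithelial cells in each tissue.

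Libraries held 23703449 to 64736650 counts. Mitochondrially encoded genes took 12.1% to 17.2% of the counts in SI-pos, 26.6% to 34.9% in SI-neg, 7.13% to 8.83% in GB-pos and 11.2% to 25.0% in GB-neg. Transcripts typical of one tissue also appeared in single libraries of the other. Over 154 genes of the small intestine, GB-neg 1 held a median of 5.2% of the SI-neg level, against 0.167% in GB-neg 2 and 0.0939% in GB-neg 3. Over 111 genes of the gallbladder, SI-neg 3 held 2.01% of the GB-neg level, against 0.602% in SI-neg 1 and 0.36% in SI-neg 2. Counts over gene lists that move by more than 1.5 times when SI-neg 3 and GB-neg 1 are left out are given with and without these libraries.

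Il25, the gene whose reporter defined the gate, was present in every IL-25+ library of both tissues. It measured 6.38, 18.2 and 14.6 CPM in SI-pos and 6.39, 12 and 6.92 CPM in GB-pos. Its levels were 0, 0.0334 and 0.0508 CPM in SI-neg and 0.674, 0.0295 and 0 CPM in GB-neg. The IL-25+ and IL-25- libraries did not overlap in either tissue, and the interaction of -3.61 ± 1.66 (log2 ± SE) did not pass the test (adjusted p = 0.21). Without GB-neg 1, the IL-25- library with the highest level, the interaction was 0.12 (adjusted p = 0.991). The SI-neg libraries held 3 Il25 counts in all, and the ratio of SI-pos to SI-neg was 443, with an exact binomial 95% interval of 151 to 2150 that covers counting error only.

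Gate effects differed between the tissues for 1536 genes, 9.23% of those tested, of which 604 were higher (3.63%) and 932 lower (5.6%). At an unadjusted p under 0.05 the count was 3876. The called higher genes had a median interaction of 3.06 and the called lower genes of -2.23, against -0.11 over all tested genes. The split between directions differed between analyses. With TMM scaling 39.3% of calls were higher, and with RLE scaling, which shifted the median over all genes by 0.16, 51.2%. The share was 51.6% with DESeq2 and 48.8% without SI-neg 3 and GB-neg 1. Leaving out SI-pos 2 lowered the number of higher genes to 388. Across 22 alternative analyses, 712 of the 1536 calls held in each one, 1034 held without SI-neg 3 and GB-neg 1, and none was called in the opposite direction. In bulk RNA, fewer cells of a type and less RNA per cell cannot be told apart.

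Most genes that marked the gate in both tissues did so in the same direction. The test of IL-25+ against IL-25- called 4456 genes in the gallbladder (26.8%) and 4529 in the small intestine (27.2%), and 2343 were called in both. The direction was the same for 2152 of these (91.8%) and opposite for 191 (8.15%, or 1.15% of the tested genes). Each of the 191 reversed genes also passed the interaction test. Of the 2152 genes that moved the same way, 289 (13.4%) passed it and so differed in size.

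The 1536 genes fell into a few patterns. Of the reversed genes, 79 (0.475% of the tested genes) were higher in IL-25+ cells of the gallbladder and lower in those of the small intestine, and 112 (0.673%) showed the converse. The gate test passed in the small intestine and not in the gallbladder for 332 genes that were higher and 183 that were lower in IL-25+ cells. It passed in the gallbladder and not in the small intestine for 217 higher and 280 lower genes. Genes that rose in both tissues numbered 89 with the larger rise in gallbladder and 106 with the larger rise in small intestine, and genes that fell in both numbered 75 and 19. For 44 genes neither gate test passed. These counts rest partly on single libraries. Without SI-pos 3, the genes that rose in the small intestine alone numbered 211. Those that fell there alone numbered 98 without SI-pos 2, 108 without SI-pos 3 and 119 without SI-neg 1. Most called genes, 1254 of 1536, had a group mean of at least 5 CPM in both tissues. Another 28 stayed under 1 CPM in the small intestine with a group mean of at least 10 CPM in the gallbladder, and 15 showed the converse. The remaining 239 lay between these limits.

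**Figure D1:**
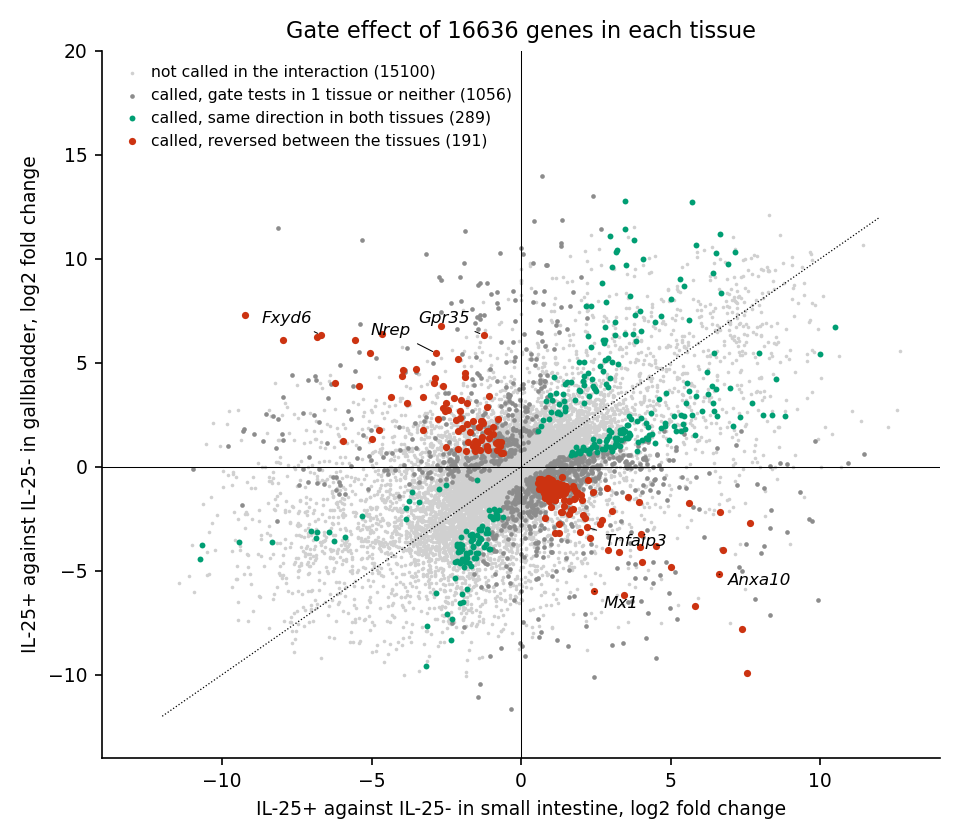
Log2 fold change of IL-25+ against IL-25- libraries in the small intestine (x axis) and in the gallbladder (y axis) for 16636 genes, each point 1 gene, with the dotted line marking equal effects. The 191 reversed genes (red) lie at the upper left and lower right, and the 289 called genes that moved the same way in both tissues (green) lie to either side of the dotted line.

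The same 1536 genes can be read by the gate in which the tissues differed. The test of gallbladder against small intestine called 3938 genes in IL-25+ cells (23.7%) and 4099 in IL-25- cells (24.6%). Among the interaction genes, it passed in IL-25+ cells alone for 556, in IL-25- cells alone for 560, in both gates in the same direction for 186 and in both in opposite directions for 180. Neither tissue test passed for 54. Without SI-pos 2, the first and the fourth of these counts were 320 and 111, without SI-pos 3 they were 366 and 112, and without SI-pos 2, SI-pos 3, SI-neg 1 or GB-pos 1 the last was 27 to 31. Differences between the tissues in the reporter-negative comparison cells were therefore part of the interaction for many genes.

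Among the reversed genes that were higher in the IL-25+ cells of the gallbladder, Fxyd6 had levels far apart in both tissues. Fxyd6 (ENSMUSG00000066705, chr9:45370185-45396159, GRCm38) encodes a FXYD-family regulator of the sodium pump. It measured 37.8, 18.4 and 40.1 CPM in GB-pos and 0.646, 0.0295 and 0.487 CPM in GB-neg. In the small intestine the order was the opposite, with 0.0377, 0.0401 and 0.243 CPM in SI-pos and 8.01, 11.6 and 14 CPM in SI-neg. The groups did not overlap in either tissue. Its gate effect was 6.32 ± 0.89 in gallbladder and -6.68 ± 0.96 in small intestine, an interaction of 13.00 ± 1.30 (edgeR adjusted p = 8.24e-05). Fitted effects of genes this close to 0 counts depend on the model's prior count and are read here for direction more than size.

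Unc79 and Unc80 encode 2 subunits of the sodium leak channel complex of neurons, and both reversed in the same way. Unc79 measured 9.61, 14.8 and 16 CPM in GB-pos against 0.393, 0.0295 and 0 CPM in GB-neg, and 0.566, 0.12 and 0.162 CPM in SI-pos against 4.06, 12.1 and 5.46 CPM in SI-neg. Unc80 measured 6.68, 4.71 and 4.41 CPM in GB-pos against 0.702, 0 and 0 CPM in GB-neg, and 1.21, 0.562 and 0.243 CPM in SI-pos against 5.58, 11.2 and 15 CPM in SI-neg. Every GB-pos library was above every GB-neg library, and every SI-pos library below every SI-neg library, for both genes. The interactions were 11.05 ± 1.63 (edgeR adjusted p = 0.00101) and 8.35 ± 1.86 (adjusted p = 0.0129). Apba1, a neuronal adaptor protein of vesicle traffic, followed with 8.8, 10.8 and 12.1 CPM in GB-pos and 4.15, 17.4 and 1.17 CPM in SI-neg, against 0.407, 0 and 0 CPM in GB-neg and 0, 0 and 0.0811 CPM in SI-pos. The groups were apart in both tissues, the interaction was 14.07 ± 2.34 (adjusted p = 0.00219), and the SI-neg to SI-pos ratio of 261 had an exact 95% interval of 72.1 to 2160.

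Etv1 and Gpr35 showed the same reversal at higher levels. Etv1 (chr12:38779380-38870484), an ETS-family transcription factor, measured 84.4, 150 and 127 CPM in GB-pos and 3.33, 8.15 and 3.15 CPM in GB-neg, but 1.32, 0.16 and 0.568 CPM in SI-pos and 5.1, 16.6 and 10.6 CPM in SI-neg. Its gate effect was 4.63 ± 0.66 in gallbladder and -3.97 ± 0.67 in small intestine (interaction 8.59 ± 0.94, edgeR adjusted p = 0.000163). Gpr35 (chr1:92950865-92986391), a G protein-coupled receptor of gut epithelium and immune cells, measured 205, 172 and 164 CPM in GB-pos against 3.07, 0.738 and 2.89 CPM in GB-neg. In the small intestine it measured 21.2, 14.5 and 20.8 CPM in SI-pos and 52.4, 43.8 and 38.5 CPM in SI-neg. The groups of both genes were apart in both tissues. The Gpr35 gate effect was 6.32 ± 0.47 in gallbladder and -1.25 ± 0.38 in small intestine (interaction 7.58 ± 0.59, edgeR adjusted p = 1.49e-05).

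Spdef, an ETS-family factor needed for goblet cell maturation, was the 1 called member of 16 tested goblet cell genes. Over all tested genes 3.63% were called higher. Of the list, 3 were called higher without GB-neg 1, alone or with SI-neg 3, and 2 without GB-neg 3. The rest of the list did not follow Spdef in the gallbladder, where 1 of the 16 rose with the gate and 7 fell (12.4% and 14.4% of all genes). Members summed to 209 to 259.7 CPM in GB-pos and 900.5 to 1004 CPM in GB-neg. Spdef measured 19.4, 15.5 and 10.5 CPM in GB-pos and 1.59, 1.36 and 0.0974 CPM in GB-neg. In the small intestine it measured 0.528, 0.0802 and 0.892 CPM in SI-pos and 21.6, 25.9 and 16.5 CPM in SI-neg. The gallbladder IL-25+ libraries and the intestinal IL-25- libraries were thus the high ones, and the interaction was 9.28 ± 1.28 (edgeR adjusted p = 0.000621). Nrep, first described in regenerating neurons, measured 246, 220 and 229 CPM in GB-pos and at most 7.11 CPM in any other library. It was lower in SI-pos (0.377, 0.0802 and 1.18 CPM) than in SI-neg (2.73, 6.14 and 2.79 CPM), with an interaction of 8.28 ± 0.85 (adjusted p = 0.000125). Abca1, which exports cholesterol to apolipoproteins, measured 182, 238 and 211 CPM in GB-pos and 24.6, 53.6 and 45.2 CPM in GB-neg, against 1.43, 1.89 and 2.31 CPM in SI-pos and 14.1, 4.54 and 4.44 CPM in SI-neg (interaction 4.39 ± 0.62, adjusted p = 0.000713). Its 4 groups did not overlap within either tissue.

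The calls of these 9 genes held in each of the 22 alternatives. The call of Gsg1l, an auxiliary subunit of glutamate receptors, did not. It measured 4.01, 10.6 and 5.36 CPM in GB-pos and at most 0.0702 CPM in GB-neg, but its level in SI-neg came from 1 library (30.3, 0 and 0 CPM), so the intestinal groups overlapped. The interaction of 16.54 ± 3.79 (edgeR adjusted p = 0.0178) was 5.14 without SI-neg 1. Its call held in 13 of the 22 alternatives and was lost without SI-neg 1, GB-neg 2, GB-neg 3 or any SI-pos library. Over the whole class of 79 genes, the calls of 72 held in each alternative and those of 77 held without SI-neg 3 and GB-neg 1. The class counted 45 genes without SI-pos 2 and 51 without SI-neg 1.

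**Figure D2:**
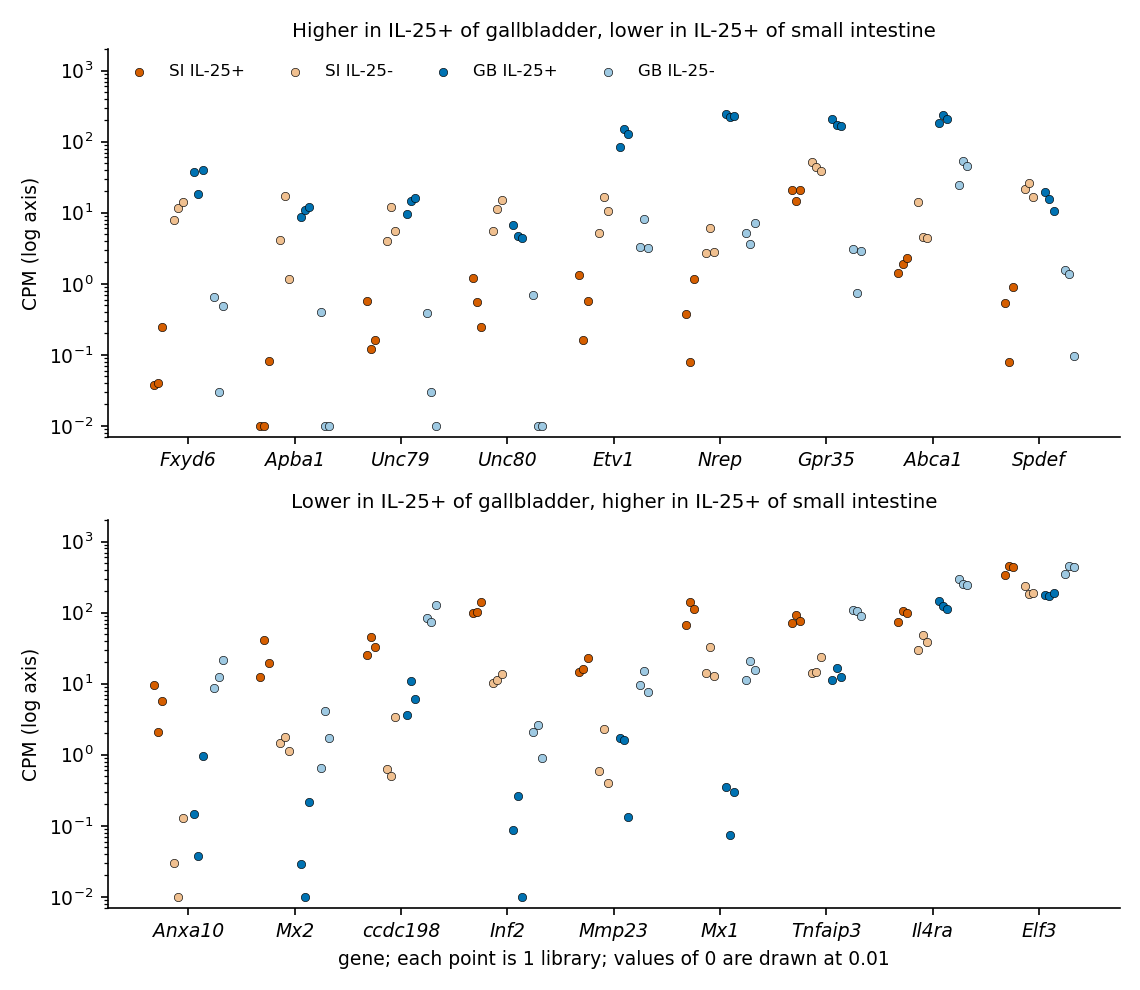
Levels in CPM (log axis) of 18 reversed genes, each point 1 library and values of 0 drawn at 0.01. In the upper panel the gallbladder IL-25+ libraries (dark blue) lie above the gallbladder IL-25- libraries (light blue) while the intestinal IL-25+ libraries (dark orange) lie below the intestinal IL-25- libraries (light orange), and in the lower panel both orders are the converse.

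The converse class was lower in the IL-25+ cells of the gallbladder and higher in those of the small intestine. It included some interferon-induced genes, genes of inflammatory signalling and a cytokine receptor. The class held 2 of 19 tested genes of the interferon list, 1 of 20 of the epithelial defence list and 1 of 14 of the type 2 cytokine receptor list. Over all tested genes the share was 0.673%. Promoter sequences of 2 members are shown as examples of letters searched in the whole class, whose shared direction is set by its definition. They come from the 250 bases before the transcription start in RefSeq for GRCm38.p6, are printed on the gene's strand, and stop where the annotated gene begins. Capitals in Elf3 (chr1:135258569-135258722, minus strand) mark the octamer ATGCAAAT, the letters bound by POU factors such as the tuft cell regulator POU2F3, which begins 148 bases before the RefSeq start. Capitals in Anxa10 (chr8:62123194-62123443, minus strand) mark TGANTCA, the AP-1 letters bound by FOS and JUN proteins, which begin 180 and 16 bases before the start.
Elf3: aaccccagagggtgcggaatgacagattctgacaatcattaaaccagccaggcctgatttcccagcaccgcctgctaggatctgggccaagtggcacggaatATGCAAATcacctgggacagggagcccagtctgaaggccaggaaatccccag
Anxa10: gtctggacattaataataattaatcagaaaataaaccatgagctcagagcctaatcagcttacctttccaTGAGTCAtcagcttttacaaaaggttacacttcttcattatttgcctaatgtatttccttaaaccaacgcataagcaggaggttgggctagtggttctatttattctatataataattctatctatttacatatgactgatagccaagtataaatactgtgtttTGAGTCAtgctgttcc
Of the 86 class members with a promoter in the table, 5 (5.81%) held the octamer and 8 (9.3%) the AP-1 letters on either strand within 250 bases before the start. The letters TTTATNG, bound by CDX factors, were in 9 (10.5%), and those of the interferon-stimulated response element in 6 (6.98%). Among the promoters of all tested genes the shares were 1.37%, 4.73%, 6.6% and 2.64% in that order, and among all 27025 promoters 1.61%, 6.87%, 10.2% and 3.04%. In the class that was higher in gallbladder IL-25+ cells, with 57 promoters, they were 3.51%, 1.75%, 3.51% and 3.51%. The octamer was also in 6 of 69 promoters (8.7%) of genes that rose in both tissues and more in the gallbladder. Such a match is a description of the letters, not a binding site.

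Anxa10 (ENSMUSG00000031635, chr8:62057042-62123150) encodes a calcium-dependent phospholipid-binding annexin. It measured 9.62, 2.09 and 5.68 CPM in SI-pos and 0.0297, 0 and 0.127 CPM in SI-neg, but 0.145, 0.0371 and 0.969 CPM in GB-pos and 8.71, 12.3 and 21.6 CPM in GB-neg. The groups were apart in both tissues, and the interaction was -11.80 ± 1.75 (edgeR adjusted p = 0.00105). ccdc198, a coiled-coil protein gene, measured 25.0, 45.3 and 32.5 CPM in SI-pos against 0.623, 0.501 and 3.35 CPM in SI-neg, and 3.66, 10.9 and 6.06 CPM in GB-pos against 83.5, 72.9 and 129 CPM in GB-neg (interaction -8.29 ± 0.97, adjusted p = 0.000251). The high libraries were again SI-pos and GB-neg. Mmp23, a matrix metalloproteinase gene, had the same pattern, with 14.4, 15.8 and 22.7 CPM in SI-pos, 9.61, 15.2 and 7.57 CPM in GB-neg and at most 2.27 CPM elsewhere (interaction -7.25 ± 1.24, adjusted p = 0.0026). Inf2, a formin that assembles and severs actin filaments, measured 99.0, 102 and 140 CPM in SI-pos and 10.2, 11.1 and 13.7 CPM in SI-neg. In the gallbladder it stayed low in both gates, with 0.0871, 0.26 and 0 CPM in GB-pos and 2.11, 2.66 and 0.909 CPM in GB-neg (interaction -7.40 ± 0.85, adjusted p = 0.000175).

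Tnfaip3 and Elf3 reversed at levels well above the detection limit. Tnfaip3 (chr10:19000910-19015657), which encodes A20, an inhibitor of NF-kB signalling, measured 72.2, 94.1 and 76.7 CPM in SI-pos and 14.2, 14.8 and 23.9 CPM in SI-neg, against 11.2, 16.4 and 12.4 CPM in GB-pos and 108, 105 and 88.5 CPM in GB-neg. The gate effect was 2.20 ± 0.26 in small intestine and -2.92 ± 0.27 in gallbladder (interaction -5.11 ± 0.38, edgeR adjusted p = 1.04e-05). Elf3, an ETS factor of epithelial differentiation, measured 343, 446 and 433 CPM in SI-pos, 237, 184 and 190 CPM in SI-neg, 177, 170 and 192 CPM in GB-pos and 354, 450 and 446 CPM in GB-neg. The SI-pos and GB-neg libraries were the high ones for both genes, with no overlap within a tissue, and the Elf3 interaction was -2.21 ± 0.25 (adjusted p = 0.000155). The epithelial defence list, which holds Tnfaip3, had 2 calls of 20 tested, both lower, against 5.6% lower over all tested genes. Nfkbia, another NF-kB inhibitor and the other called member, measured 65.2, 54.9 and 101 CPM in SI-pos and 30.8, 35.9 and 22.3 CPM in SI-neg. Its gallbladder levels ran from 19.4 to 39.6 CPM with overlapping gates, and its interaction of -1.68 ± 0.43 (adjusted p = 0.0263) held in 13 of the 22 alternatives and was lost without SI-pos 3, SI-neg 1, SI-neg 3, GB-pos 2 or GB-neg 2. The Tnfaip3 call held in each alternative.

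Type 2 cytokine receptors split between the tissues. Il4ra (chr7:125552120-125579474), the subunit shared by the IL-4 and IL-13 receptors, measured 73.3, 106 and 99.6 CPM in SI-pos and 30.3, 48.9 and 39.0 CPM in SI-neg, but 144, 123 and 113 CPM in GB-pos and 296, 253 and 247 CPM in GB-neg. The gate effect was 1.24 ± 0.21 in small intestine and -1.07 ± 0.21 in gallbladder (interaction -2.31 ± 0.30, edgeR adjusted p = 0.000431). Its partner Il13ra1 rose with the gate in both tissues and more in gallbladder, with 414, 590 and 527 CPM in GB-pos and 75.8, 74.6 and 85.7 CPM in GB-neg against 172, 127 and 132 CPM in SI-pos and 54.5, 51.3 and 49.6 CPM in SI-neg. The interaction of 1.23 ± 0.25 (adjusted p = 0.00873) held in 21 alternatives and was lost without GB-pos 2 and GB-neg 2. Of 14 tested members of this list, 1 was called higher and 2 lower (median -2.30), against 3.63% and 5.6% over all tested genes. The third called member was Il22ra1, the epithelial chain of the IL-22 receptor, which fell in both tissues. It measured 12.8, 23.4 and 14.4 CPM in SI-pos, 73.9, 125 and 55.9 CPM in SI-neg and 16.1, 26.0 and 19.4 CPM in GB-neg, and 0, 0.0371 and 0.135 CPM in GB-pos. The GB-pos libraries were thus near the detection limit, and the interaction was -6.0 ± 0.79 (adjusted p = 0.000438). Its promoter (RefSeq, GRCm38.p6, chr4:135727909-135728158, plus strand) is shown as an example of its class, in which AP-1 letters, marked here in capitals and starting 222 bases before the start, were counted.
Il22ra1: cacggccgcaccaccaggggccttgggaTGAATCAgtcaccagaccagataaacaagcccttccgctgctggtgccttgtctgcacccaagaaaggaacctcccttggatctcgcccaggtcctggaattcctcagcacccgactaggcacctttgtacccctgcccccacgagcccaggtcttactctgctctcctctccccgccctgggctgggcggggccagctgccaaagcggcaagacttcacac
Of the 61 promoters of genes that fell in both tissues and more in the gallbladder, 9 (14.8%) held TGANTCA, against 4.73% of the promoters of all tested genes. The CDX letters were in 8 (13.1%, against 6.6%), those of the interferon-stimulated response element in 6 (9.84%, against 2.64%) and the octamer in 1 (1.64%, against 1.37%). The share with AP-1 letters was under 4.73% in most other classes. It was 1.32% for genes that rose in the gallbladder alone and 4.57% for those that fell there alone. For the small intestine alone these were 4.55% and 2.11%. Genes that fell in both and more in the small intestine had 9.09%, 1 of 11. Letters of HNF1 factors, also searched, were in no promoter of any class. The shares given here and above are a selection from all motifs searched in all classes, and none was tested.

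Further reversed genes of this class belonged to the biliary and secretory lists. Prom1, a membrane protein of apical protrusions, measured 324, 316 and 382 CPM in SI-pos and 265, 141 and 187 CPM in SI-neg, against 296, 374 and 375 CPM in GB-pos and 536, 808 and 1036 CPM in GB-neg (interaction -1.98 ± 0.37, edgeR adjusted p = 0.00453). Car2, a cytosolic carbonic anhydrase that supplies bicarbonate, measured 246, 246 and 293 CPM in GB-pos and 900, 854 and 1193 CPM in GB-neg. Its intestinal groups overlapped, with 39.7, 75.7 and 169 CPM in SI-pos and 17.4, 50.7 and 38.0 CPM in SI-neg (interaction -3.33 ± 0.67, adjusted p = 0.00903). Over the class of 112 genes, 104 calls held in each alternative and 110 held without SI-neg 3 and GB-neg 1. The class, which also needs both gate tests, counted 74 genes without SI-pos 2, 71 without SI-pos 3 and 72 without SI-neg 3 and GB-neg 1. In both reversed classes the tissues also differed in opposite directions in the 2 gates for part of the genes, 25 of 79 and 37 of 112.

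Interferon-response genes were relatively higher in intestinal IL-25+ cells. Of 19 tested members, 8 were called lower in the interaction and none higher, against 5.6% lower over all tested genes, and the list median was -1.92 against -0.11. In the small intestine 11 members rose with the gate and none fell (14.5% of all genes rose), and in the gallbladder 3 rose and 4 fell (12.4% and 14.4%). The 8 called members were Mx1, Mx2, Ifit2, Ifi44, Oas2, Isg15, Oas1a and Oasl2. The count was 8 without SI-neg 3 and GB-neg 1, and 5 without GB-pos 2 and GB-neg 2. Members summed to 3474 to 4882 CPM in SI-pos, 422 to 1007 in SI-neg, 989 to 1309 in GB-pos and 345 to 732 in GB-neg.

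Mx1 and Mx2, of a family of dynamin-like GTPases that restrict viruses, were reversed. The gene annotation lists Mx2 as a polymorphic pseudogene. Mx1 (chr16:97447035-97462907) measured 67.6, 143 and 112 CPM in SI-pos and 14, 32.5 and 12.9 CPM in SI-neg, against 0.348, 0.0742 and 0.296 CPM in GB-pos and 11.3, 21 and 15.5 CPM in GB-neg. The IL-25- libraries of both tissues lay in a similar range, while the IL-25+ libraries lay above it in the small intestine and below it in the gallbladder. The gate effect was 2.44 ± 0.46 and -5.99 ± 0.58, respectively (interaction -8.43 ± 0.74, edgeR adjusted p = 3.71e-05). Mx2 (chr16:97535308-97560900) measured 12.4, 41.3 and 19.4 CPM in SI-pos and 1.48, 1.77 and 1.14 CPM in SI-neg, against 0.029, 0 and 0.215 CPM in GB-pos and 0.66, 4.08 and 1.72 CPM in GB-neg. Its groups too were apart in each tissue, with an interaction of -8.63 ± 1.37 (adjusted p = 0.00164).

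Fam3b, a secreted cytokine-like protein gene, lies on chromosome 16 between Mx1 and Mx2 (chr16:97470965-97514816). Fam3b measured 3.72, 4.71 and 3.07 CPM in GB-pos and 41.7, 30.1 and 32.3 CPM in GB-neg, and 76.4, 111 and 118 CPM in SI-pos and 72.2, 113 and 61.3 CPM in SI-neg. The fall in gallbladder IL-25+ cells was thus shared with its neighbours, while the intestinal gates overlapped, and the interaction was -3.49 ± 0.41 (edgeR adjusted p = 0.000193).

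Oasl2, Oas1a and Oas2, called members of the list from the oligoadenylate synthetase family, known for sensing double-stranded RNA, rose in intestinal IL-25+ cells without a called change in the gallbladder. Oasl2 measured 1113, 1441 and 1506 CPM in SI-pos and 145, 275 and 131 CPM in SI-neg, and 420, 542 and 517 CPM in GB-pos and 170, 368 and 446 CPM in GB-neg. Oas1a measured 91.2, 112 and 115 CPM in SI-pos and 8.16, 16.4 and 7.69 CPM in SI-neg, and 13.6, 26.2 and 26.4 CPM in GB-pos and 8.25, 18.8 and 10.7 CPM in GB-neg. The intestinal groups were far apart for both, and the gallbladder groups overlapped. The interactions were -2.29 ± 0.48 (edgeR adjusted p = 0.00905) and -2.49 ± 0.55 (adjusted p = 0.0122), and both held in each alternative. Oas2 (interaction -4.23 ± 0.89, adjusted p = 0.0145) reached 853 to 1574 CPM in SI-pos and at most 174 CPM in any other library. Isg15, a ubiquitin-like protein induced by interferon, measured 23.8, 54.5 and 37.2 CPM in SI-pos and at most 2.74 CPM elsewhere. Its interaction of -3.07 ± 0.82 (adjusted p = 0.0323) held in 12 of the 22 alternatives and was lost without SI-neg 1, SI-pos 2, SI-neg 3, SI-pos 3, GB-pos 1, GB-pos 2 or GB-neg 2. Ifit2 (-6.58 ± 1.60, adjusted p = 0.0203) and Ifi44 (-5.91 ± 1.27, adjusted p = 0.0108) were called through their fall in gallbladder IL-25+ cells. Ifit2 lost its call without SI-pos 3 and without the pair SI-neg 3 and GB-neg 1.

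Promoters of Isg15 (chr4:156200819-156201068, minus strand) and Oas1a (chr5:120907526-120907775, minus strand), from RefSeq for GRCm38.p6, are shown because they are the 2 called members of the list with letters of the interferon-stimulated response element, bound by IRF and STAT complexes. Capitals mark the matches, which overlap each other, 3 in Isg15 starting 78, 72 and 66 bases before the start and 2 in Oas1a starting 20 and 14 bases before it.
Isg15: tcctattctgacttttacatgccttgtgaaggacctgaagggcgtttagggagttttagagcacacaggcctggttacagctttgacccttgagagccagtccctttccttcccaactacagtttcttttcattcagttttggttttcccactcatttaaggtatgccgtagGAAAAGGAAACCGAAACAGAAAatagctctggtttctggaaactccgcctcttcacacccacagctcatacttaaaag
Oas1a: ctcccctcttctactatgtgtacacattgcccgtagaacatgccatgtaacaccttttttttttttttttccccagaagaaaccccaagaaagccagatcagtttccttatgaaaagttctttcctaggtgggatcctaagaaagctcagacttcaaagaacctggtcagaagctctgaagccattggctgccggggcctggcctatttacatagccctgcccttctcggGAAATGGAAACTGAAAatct
On either strand, 8 of the 13 list members with a promoter in the table (61.5%) held these letters, and 2 of the 5 called members with one (40%). The share was 2.64% of the promoters of all tested genes and 3.04% of all promoters.

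H2-Q6, H2-Q5 and H2-Q7, class I genes of the H2-Q cluster, were also called lower. The gene annotation lists H2-Q5 as a polymorphic pseudogene. H2-Q6 measured 185, 306 and 275 CPM in SI-pos and 22.1, 18.6 and 8.05 CPM in SI-neg, and at most 0.371 CPM in GB-pos against 0.8, 7.95 and 0.487 CPM in GB-neg (interaction -7.81 ± 1.5, edgeR adjusted p = 0.00984). H2-Q5 (interaction -6.91 ± 1.52, adjusted p = 0.012) and H2-Q7 (-6.79 ± 1.46, adjusted p = 0.0132) stayed under 2 CPM in every gallbladder library. The H2-Q7 call held in 20 alternatives and was lost with limma-voom and without the filter on low counts. These genes are near-identical copies of each other, so short reads may be split between them, and their values are uncertain.

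The list of immediate early genes, which respond within minutes to growth factors and other stimuli, and of heat shock genes had its highest summed level in GB-neg. Of 20 tested members, 6 were called lower (Zfp36, Btg2, Jund, Junb, Ier3 and Klf6) and 1 higher (Egr1), against 5.6% and 3.63% over all tested genes, with a list median of -1.18. The 6 lower calls held in each alternative. Members summed to 2056 to 3273 CPM in SI-pos, 2464 to 3664 in SI-neg and 4590 to 5406 in GB-pos, and to 22540 to 36000 in GB-neg. In the gallbladder 16 of the 20 fell with the gate and none rose (14.4% and 12.4% of all genes), and in the small intestine 7 fell and 2 rose (12.8% and 14.5% of all genes).

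Zfp36, which promotes decay of cytokine mRNAs, measured 7344, 7275 and 7616 CPM in GB-neg and 1340, 1264 and 1364 CPM in GB-pos. In the small intestine it was higher in SI-pos (943, 1458 and 1479 CPM) than in SI-neg (719, 890 and 628 CPM), so it belonged to the reversed genes (interaction -3.28 ± 0.28, edgeR adjusted p = 3.32e-05). Btg2, an antiproliferative early response gene, also reversed, with 147, 218 and 236 CPM in SI-pos and 95.2, 113 and 96.3 CPM in SI-neg against 236, 247 and 255 CPM in GB-pos and 938, 868 and 1038 CPM in GB-neg (interaction -2.93 ± 0.27, adjusted p = 4.29e-05). Neither gene overlapped between gates in either tissue. Junb, an AP-1 subunit, fell in the gallbladder alone, from 228, 268 and 111 CPM in GB-neg to 49.7, 53.4 and 66.6 CPM in GB-pos (interaction -2.49 ± 0.43, adjusted p = 0.00304). Egr1 fell with the gate in both tissues and further in the small intestine, where SI-pos held 39.5, 42.0 and 38.4 CPM and SI-neg 760, 587 and 394 CPM, against 1119, 1183 and 1091 CPM in GB-pos and 5945, 4874 and 8708 CPM in GB-neg. Its interaction of 1.34 ± 0.35 (adjusted p = 0.0292) held in 11 of the 22 alternatives and was lost without SI-neg 1, GB-neg 1, GB-neg 2 or any one of the SI-pos and GB-pos libraries. The list had no higher call without most of these.

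**Figure D3:**
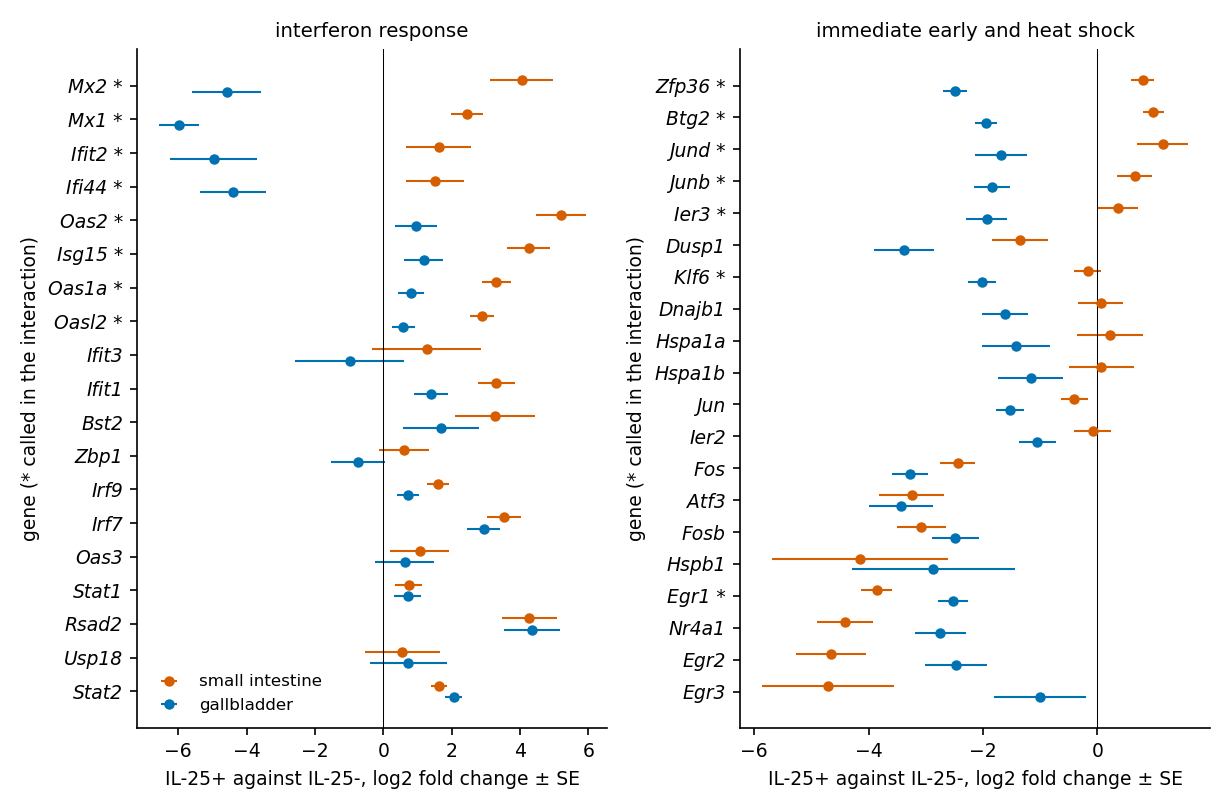
Log2 fold change of IL-25+ against IL-25- (points) with its SE (bars) in the small intestine (orange) and gallbladder (blue) for the tested members of the interferon response list (left, 19 genes) and of the immediate early and heat shock list (right, 20 genes), ordered by interaction, with called genes starred. Orange points lie to the right of blue ones for the 8 starred interferon genes, and for the 6 starred immediate early genes other than Egr1.

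Genes that rose with the gate in the small intestine, with no called change in the gallbladder, included membrane and junction proteins that were already high in gallbladder IL-25- cells. Cd24a (chr10), a surface glycoprotein of epithelial and immune cells, measured 19281, 20796 and 22284 CPM in SI-pos and 539, 534 and 408 CPM in SI-neg, but 2639, 6527 and 5336 CPM in GB-pos and 5327, 6632 and 8751 CPM in GB-neg. The gate effect was 5.4 ± 0.35 in small intestine and -0.51 ± 0.29 in gallbladder, where the groups overlapped (interaction -5.91 ± 0.44, edgeR adjusted p = 1.04e-05). Myadm, a membrane protein of the cell cortex, measured 1719, 2066 and 1903 CPM in SI-pos and 155, 171 and 120 CPM in SI-neg, and 452 to 501 CPM in GB-pos and 407 to 589 CPM in GB-neg (interaction -3.76 ± 0.27, adjusted p = 1.04e-05). Ddah1, which degrades an inhibitor of nitric oxide synthase, measured 200, 201 and 222 CPM in SI-pos and 5.84, 1.7 and 3.2 CPM in SI-neg, and 108, 117 and 101 CPM in GB-pos and 140, 134 and 179 CPM in GB-neg (interaction -6.33 ± 0.48, adjusted p = 1.28e-05). In each of these genes SI-neg was the low group and both gallbladder groups stood well above it. The tetraspanin Tspan8 (interaction -2.48 ± 0.32, adjusted p = 0.00041) had that pattern too, with 264 to 296 CPM in SI-neg and at least 543 CPM in every other library.

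Junction and cytoskeletal lists had called members in 1 direction. Of 17 tested claudin and tight junction genes, 5 were lower and none higher, against 5.6% and 3.63% over all tested genes (median -0.70 against -0.11), with 4 lower when SI-neg 3 and GB-neg 1 were left out. F11r, a junctional adhesion molecule, measured 1146, 1494 and 1800 CPM in SI-pos and 303, 410 and 295 CPM in SI-neg, with gallbladder libraries between 668 and 2065 CPM and overlapping gates (interaction -2.81 ± 0.44, edgeR adjusted p = 0.00151). Marveld2, or tricellulin, a protein of contacts where several cells meet, measured 114, 140 and 156 CPM in SI-pos and 63.2, 55.3 and 56.0 CPM in SI-neg, with 75.3 to 129 CPM in the gallbladder (interaction -1.54 ± 0.29, adjusted p = 0.00438). Cldn3 (-1.56 ± 0.34, adjusted p = 0.0122) and Marveld3 (-1.35 ± 0.32, adjusted p = 0.018) were also called through a rise in the small intestine, the latter lost without SI-neg 1, without SI-pos 3 and without the pair SI-neg 3 and GB-neg 1. The scaffold gene Tjp1 fell in both tissues, from 1622, 971 and 1506 CPM in GB-neg to 323, 324 and 311 CPM in GB-pos and from 258, 319 and 278 CPM in SI-neg to 180, 185 and 149 CPM in SI-pos (interaction -1.36 ± 0.28, adjusted p = 0.00751).

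Of 9 tested keratins, 3 were called lower in the interaction and none higher, against 5.6% and 3.63% over all tested genes. In the small intestine 4 rose with the gate and 3 fell. Krt18, of simple epithelium, measured 8128, 11146 and 10660 CPM in SI-pos and 170, 263 and 103 CPM in SI-neg, and 2482, 1760 and 2004 CPM in GB-pos and 869, 617 and 708 CPM in GB-neg. It rose in both tissues, by 5.81 ± 0.35 in small intestine and 1.51 ± 0.29 in gallbladder (interaction -4.30 ± 0.42, edgeR adjusted p = 7.01e-05). Its partner Krt8 measured 984, 1226 and 1319 CPM in SI-pos and 158, 191 and 174 CPM in SI-neg, while GB-pos (380, 401 and 323 CPM) and GB-neg (357, 234 and 141 CPM) overlapped (interaction -2.16 ± 0.38, adjusted p = 0.00322). Krt23 was the third lower call, with an interaction of -3.06 ± 0.85 (adjusted p = 0.0488) that held in 7 of the 22 alternatives and was lost without any one library except SI-neg 2, SI-neg 3 or GB-neg 3. The list median was -1.68, and 1 keratin was called higher without GB-neg 1, alone or with SI-neg 3.

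Genes that fell with the gate in the small intestine, with no called change in the gallbladder, included Peg3, Bex3 and Dab1. Peg3, an imprinted zinc finger gene, measured 3.92, 3.25 and 0.324 CPM in SI-pos and 133, 309 and 235 CPM in SI-neg, against 43.4, 80.3 and 39.8 CPM in GB-pos and 25.0, 23.6 and 25.6 CPM in GB-neg (interaction 7.63 ± 0.93, edgeR adjusted p = 0.000438). Bex3 measured 2.45, 3.29 and 4.01 CPM in SI-pos and 16.4 to 37.4 CPM in the other 9 libraries (interaction 3.56 ± 0.46, adjusted p = 0.000404). Dab1, an adaptor of reelin signalling, measured 18.5, 10.7 and 10.9 CPM in SI-pos, the low group, and 23.7 to 74.5 CPM elsewhere (interaction 3.12 ± 0.41, adjusted p = 0.000462). In the gallbladder it measured 67.3, 47.1 and 38.9 CPM in GB-pos and 34.2, 23.7 and 31.1 CPM in GB-neg. Every GB-pos library of Dab1 and of Peg3 lay above every GB-neg library, but the gallbladder test did not pass (edgeR adjusted p = 0.0589 for Dab1 and 0.177 for Peg3). The potassium channel gene Kcnn4 (interaction 2.08 ± 0.47, adjusted p = 0.0134) and Vdr, the vitamin D receptor (1.78 ± 0.34, adjusted p = 0.00558), also fell in the small intestine without a called change in the gallbladder. Vdr measured 306, 221 and 225 CPM in SI-pos and 691, 639 and 587 CPM in SI-neg, and its gallbladder gates overlapped between 71.0 and 155 CPM. Among 16 tested intestinal transcription factors 3 were called higher, Hnf4a and Vdr among them, and 2 lower (Elf3 and Creb3l3). Over all tested genes the shares were 3.63% and 5.6%. The higher count was 5 without GB-neg 1 and 1 without SI-pos 2, SI-pos 3, SI-neg 1, GB-pos 1 or GB-neg 2, each left out in turn.

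Genes that rose with the gate in the gallbladder, with no called change in the small intestine, included some genes known from intestinal stem cells. Lgr5 (chr10:115450311-115587780), the R-spondin receptor that marks crypt base stem cells, measured 112, 134 and 112 CPM in GB-pos and 2.01, 0.0886 and 0 CPM in GB-neg, against 32.3, 19.5 and 27.8 CPM in SI-pos and 105, 50.2 and 31.9 CPM in SI-neg. The gallbladder groups were apart, and the intestinal groups overlapped. The gate effect was 7.27 ± 1.22 in gallbladder and -1.23 ± 0.93 in small intestine (interaction 8.50 ± 1.5, edgeR adjusted p = 0.0062). Ascl2, a basic helix-loop-helix factor of stem cells that is also listed for tuft cells, measured 46.9, 50.3 and 25.7 CPM in GB-pos and 0.702, 0.177 and 2.37 CPM in GB-neg, with 1.16 to 16.7 CPM over both intestinal gates (interaction 6.75 ± 1.31, adjusted p = 0.00645). Sox4 (3.80 ± 0.88, adjusted p = 0.0154) and Rnf43 (2.41 ± 0.66, adjusted p = 0.0357), the latter through a fall in the small intestine, were the other higher calls and Ephb3 (-2.26 ± 0.65, adjusted p = 0.0446) the lower call among 16 tested stem cell genes. Over all tested genes 3.63% were called higher and 5.6% lower. The stem cell list did not rise as a whole with the gallbladder gate. There 4 of the 16 rose and 4 fell (12.4% and 14.4% of all genes), with a median of -0.37. Members summed to 464.5 to 666.5 CPM in GB-pos and 1042 to 1319 CPM in GB-neg. Without SI-neg 3 and GB-neg 1 the interaction counts were 6 higher and none lower, without GB-neg 1 alone 7 higher, and without GB-pos 2 there were 2 higher. Sox4 lost its call without GB-pos 2, and Rnf43 without SI-pos 2, SI-pos 3, SI-neg 1, GB-neg 2, GB-neg 3, GB-pos 1 or GB-pos 2. Ephb3 kept its call without GB-pos 2, GB-pos 3 or GB-neg 2 and lost it without any other single library. Proliferation genes, 24 tested, had no call in either direction by edgeR, DESeq2 or limma-voom, and 1 was higher at an unadjusted p under 0.05 by edgeR. A single call appeared when SI-pos 1 or GB-pos 2 was left out.

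Luminal receptors contributed calls in both directions, 3 higher and 3 lower of 13 tested, against 3.63% and 5.6% over all tested genes. Casr (chr16:36493696-36562141), the calcium-sensing receptor, measured 220, 250 and 172 CPM in GB-pos and 0.996, 0.148 and 0.13 CPM in GB-neg, and 0.562 to 15.1 CPM in the small intestine with overlapping gates (interaction 9.97 ± 1.42, edgeR adjusted p = 0.00182). Gpr35, described above, and Ffar3, a short-chain fatty acid receptor, were the other higher calls. Ffar3 measured 205, 147 and 199 CPM in GB-pos and at most 0.266 CPM in GB-neg, and 708, 960 and 1319 CPM in SI-pos and 9.11, 12.2 and 3.61 CPM in SI-neg (interaction 2.86 ± 0.56, adjusted p = 0.00661). The orphan receptor Gprc5c rose in both tissues and more in the small intestine, with 736, 988 and 1079 CPM in SI-pos and 12.8, 18.5 and 5.81 CPM in SI-neg against 654, 543 and 562 CPM in GB-pos and 59.2, 58.3 and 40.8 CPM in GB-neg (interaction -2.77 ± 0.46, adjusted p = 0.00219). Its relative Gprc5a rose in the small intestine, from 0.742, 7.78 and 4.47 CPM to 57.5, 53.8 and 72.6 CPM, while the gallbladder gates overlapped (interaction -4.94 ± 0.96, adjusted p = 0.00696). Cysltr2, a cysteinyl leukotriene receptor, stayed under 3 CPM in every library, and its lower call was lost without any one library except GB-neg 1.

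Taste-type signalling genes had 2 calls among 9 tested, 1 higher and 1 lower, against 3.63% and 5.6% over all tested genes. Tas1r3, the shared subunit of the sweet and umami receptors, measured 57.0, 55.9 and 32.4 CPM in GB-pos and 1.98, 3.4 and 2.63 CPM in GB-neg, with 1.8 to 8.83 CPM and overlapping gates in the small intestine (interaction 3.54 ± 0.67, edgeR adjusted p = 0.00507). Gnat3, the alpha subunit of gustducin, rose in both tissues. It measured 20.2, 14 and 49.3 CPM in SI-pos and 0.208, 0.3 and 0.0254 CPM in SI-neg, and 24.8, 13.1 and 29.9 CPM in GB-pos and 6.33, 3.72 and 2.89 CPM in GB-neg. The IL-25+ levels of the tissues overlapped, and the IL-25- level was the one that differed (interaction -4.92 ± 0.95, adjusted p = 0.00573). Without SI-neg 3 and GB-neg 1 the list had 3 higher calls, and 2 without either of these libraries alone.

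Among genes that rose with the gate in the gallbladder alone and met the rules for naming, Ank, Rab3b and Anln had the lowest p. Ank, which exports pyrophosphate precursors, measured 135, 227 and 180 CPM in GB-pos and 5.04, 3.04 and 5.72 CPM in GB-neg, and 22.5 to 34.9 CPM in all 6 intestinal libraries (interaction 5.50 ± 0.40, edgeR adjusted p = 1.04e-05). Rab3b, a GTPase of regulated exocytosis, measured 96.4, 79.5 and 84.9 CPM in GB-pos and 0.168, 0.0295 and 0.065 CPM in GB-neg, and 2.56 to 12.1 CPM in the small intestine (interaction 8.89 ± 0.79, adjusted p = 4.07e-05). Anln, an actin-binding scaffold of the contractile ring, measured 144, 229 and 203 CPM in GB-pos and 6.72, 6.79 and 3.57 CPM in GB-neg, and 19.1 to 45.0 CPM in the small intestine (interaction 5.31 ± 0.50, adjusted p = 5.8e-05). The intestinal gates overlapped for all 3 genes.

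Genes that fell with the gate in the gallbladder alone included Txnip and Nlrc4. Txnip, a thioredoxin inhibitor induced by glucose, measured 269, 323 and 379 CPM in GB-pos and 909, 1178 and 1224 CPM in GB-neg, and 210, 243 and 234 CPM in SI-pos and 179, 147 and 157 CPM in SI-neg (interaction -2.28 ± 0.26, edgeR adjusted p = 0.000155). Nlrc4, the inflammasome subunit that responds to bacterial flagellin and secretion systems, measured 8.31, 13.5 and 11.1 CPM in GB-pos and 47.2, 45.3 and 56.5 CPM in GB-neg, and 144, 142 and 152 CPM in SI-pos and 87.2, 124 and 70.9 CPM in SI-neg (interaction -2.82 ± 0.34, adjusted p = 0.000265). The intestinal levels of both were slightly higher in every SI-pos library than in any SI-neg library, but the intestinal test did not pass (adjusted p = 0.0512 for Txnip and 0.0631 for Nlrc4). Of 21 tested gallbladder identity genes, 6 were lower in the interaction and none higher (median -0.36), against 5.6% and 3.63% over all genes. Cd24a, Tspan8, Prom1, Onecut2 and Krt23 were among the lower ones, and 1 member was higher without GB-neg 1, alone or with SI-neg 3. Onecut2, a biliary transcription factor, measured 330, 519 and 432 CPM in GB-pos and 1179, 1611 and 2059 CPM in GB-neg (interaction -1.5 ± 0.31, adjusted p = 0.00852).

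**Figure D4:**
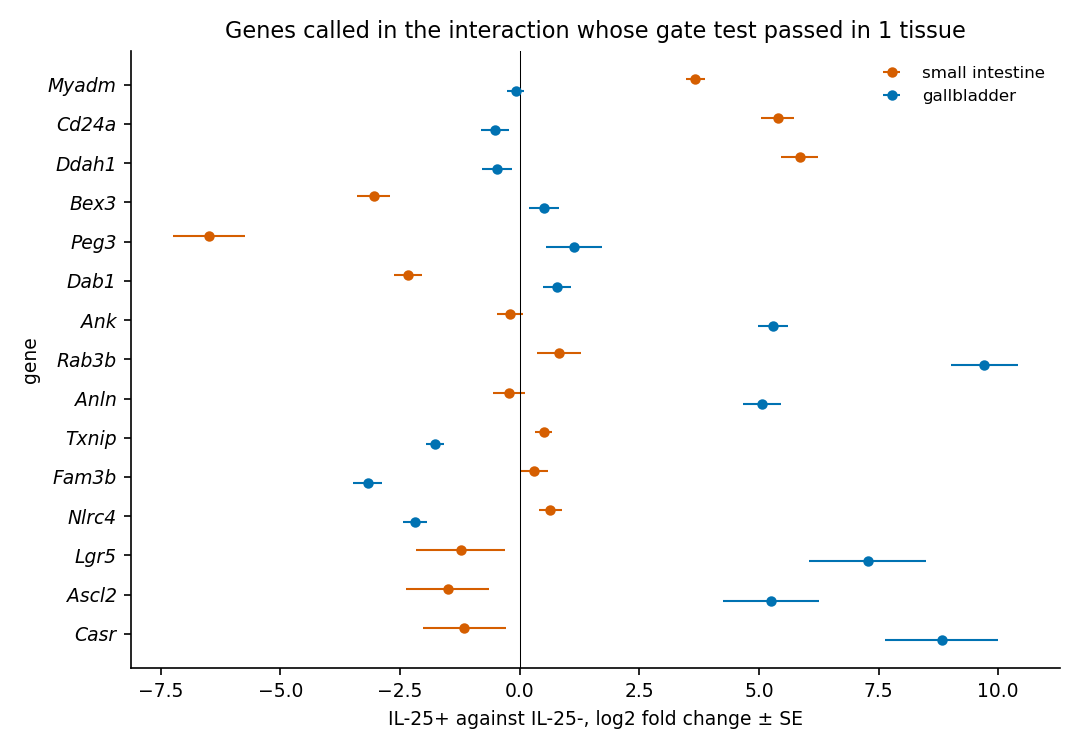
Log2 fold change of IL-25+ against IL-25- (points) with its SE (bars) in the small intestine (orange) and gallbladder (blue) for 15 genes called in the interaction whose gate test passed in 1 tissue. Cd24a lies at 5.4 in the small intestine and -0.51 in the gallbladder, and Lgr5 at -1.23 and 7.27.

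Among genes that moved the same way in both tissues, the size of the change differed. Nebl, an actin-binding protein of the nebulin family, rose by 7.08 ± 0.30 in small intestine, from 3.38, 4.2 and 4.09 CPM to 532, 450 and 601 CPM, and by 1.96 ± 0.23 in gallbladder, from 109, 99.6 and 156 CPM to 338, 553 and 529 CPM (interaction -5.12 ± 0.34, edgeR adjusted p = 1.04e-05). Runx1, a transcription factor of blood and epithelial progenitors, measured 204, 218 and 251 CPM in SI-pos and 6.17, 9.21 and 6.6 CPM in SI-neg, and 172, 131 and 127 CPM in GB-pos and 59.3, 58.9 and 60.3 CPM in GB-neg (interaction -3.67 ± 0.29, adjusted p = 1.49e-05). For both genes the IL-25- level was much the higher in the gallbladder, and the IL-25+ levels were closer. Larger rises in the gallbladder were seen for Epb41l2, a membrane skeleton protein, at 562, 542 and 462 CPM in GB-pos and 37.4, 26.6 and 35.5 CPM in GB-neg against 223, 271 and 292 CPM in SI-pos and 102, 85.8 and 92.8 CPM in SI-neg (interaction 2.49 ± 0.26, adjusted p = 0.000101). Fryl, related to the furry cell morphology protein, had an interaction of 2.35 ± 0.26 (adjusted p = 0.000141). The number of genes with the larger rise in gallbladder was 136 without GB-neg 1 and 50 to 58 without SI-neg 1 or any SI-pos library.

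Among genes that fell in both tissues and further in the gallbladder, several encode transporters and enzymes. Slc4a4, the sodium bicarbonate cotransporter of bile duct and pancreatic cells, measured 2327, 2723 and 2382 CPM in GB-neg and 167, 189 and 203 CPM in GB-pos, and 90.8, 98.3 and 151 CPM in SI-neg and 31.3, 30.9 and 21 CPM in SI-pos (interaction -1.70 ± 0.31, edgeR adjusted p = 0.00406). Slc2a2, a glucose transporter, measured 157, 153 and 248 CPM in GB-neg and 10.6, 16.1 and 12.8 CPM in GB-pos, and 97.3, 128 and 101 CPM in SI-neg and 42.2, 40.4 and 24.9 CPM in SI-pos (interaction -2.22 ± 0.38, adjusted p = 0.00259). The peptidase gene Dpp4 (-2.46 ± 0.42, adjusted p = 0.00259) fell in the same manner, as did Reep6, which shapes endoplasmic reticulum (-2.51 ± 0.36, adjusted p = 0.000788). For Slc2a2, GB-neg lay above SI-neg and GB-pos below SI-pos. Of 26 tested xenobiotic detoxification genes, 4 were lower and 2 higher, against 5.6% and 3.63% over all tested genes. Gstm3, a glutathione transferase, measured 23.5, 17.7 and 11.1 CPM in GB-neg and at most 0.996 CPM in GB-pos, and 263, 330 and 251 CPM in SI-neg and 87.4, 78.4 and 101 CPM in SI-pos (interaction -3.09 ± 0.51, adjusted p = 0.00217). The counts were 3 lower and 1 higher without SI-neg 3 and GB-neg 1, and DESeq2 called 7 lower. The higher count was also 1 when any one of SI-pos 2, SI-pos 3, the SI-neg libraries, the GB-pos libraries or GB-neg 1 was left out. The number of genes with the larger fall in gallbladder was 43 to 49 without SI-neg 1, SI-neg 3 or any SI-pos library.

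Ret, a receptor tyrosine kinase of neuronal and endocrine cells, fell further in the small intestine. It measured 17.5, 43.1 and 20.8 CPM in SI-neg and 0, 0 and 0.0405 CPM in SI-pos, and 92.2, 89.8 and 64.4 CPM in GB-neg and 5.17, 8.69 and 3.98 CPM in GB-pos (interaction 6.87 ± 0.91, edgeR adjusted p = 0.000461). With 1 count in SI-pos, the SI-neg to SI-pos ratio was 2000 with an exact 95% interval of 358 to 78900. Tagln2, an actin-bundling protein, measured 394, 326 and 303 CPM in SI-neg and 66.7, 62.9 and 48.3 CPM in SI-pos, and 805, 646 and 765 CPM in GB-neg and 468, 379 and 373 CPM in GB-pos (interaction 1.66 ± 0.26, adjusted p = 0.00153). Both were higher in the gallbladder than in the small intestine in every gate. This class of 19 genes numbered 36 without SI-pos 1 and 12 without GB-neg 2.

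A small set of called genes was expressed in a single tissue, with a mean under 1 CPM in each gate of the other. Adamts7, a secreted metalloproteinase, measured 20, 32.6 and 27.2 CPM in GB-pos and at most 0.254 CPM in every other library (interaction 11.85 ± 1.40, edgeR adjusted p = 0.000219). Tcerg1l measured 44.8, 35.5 and 37.9 CPM in GB-pos and at most 0.365 CPM elsewhere (interaction 10.48 ± 1.49, adjusted p = 0.000754). Cd79b, a signalling chain of the B cell receptor, measured 29.0, 25.7 and 26.5 CPM in GB-pos, 1.07, 1.18 and 1.3 CPM in GB-neg and at most 1.09 CPM in the small intestine (interaction 6.0 ± 0.94, adjusted p = 0.00154). The gene was the 1 call among 4 tested B and plasma cell markers, against 3.63% higher over all tested genes. These markers summed to 64.0 to 86.7 CPM in GB-pos and 132 to 270 CPM in GB-neg. Wdr72 measured 16.5, 24.0 and 25.4 CPM in GB-neg and under 1 CPM elsewhere, but its interaction (-5.89 ± 1.61, adjusted p = 0.0369) held in 14 of the 22 alternatives and was lost without SI-neg 1, SI-pos 2, SI-neg 2, SI-pos 3, GB-pos 2, GB-neg 2 or GB-neg 3. Ncam2, a neural adhesion molecule, measured 14.8, 14.1 and 8.15 CPM in SI-neg and 0.113, 0 and 0 CPM in SI-pos, with at most 1.22 CPM in the gallbladder (interaction 9.10 ± 2.26, adjusted p = 0.0228). It lost its call without SI-pos 2, SI-pos 3, SI-neg 1 or GB-neg 3.

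Tuft cell genes rose with the gate in both tissues: of 30 tested tuft identity genes, 30 rose in the gallbladder and 28 in the small intestine, and none fell. In the interaction 5 were called higher and 2 lower, against 3.63% and 5.6% over all genes, and the median was 0.83. These counts depended on the libraries that held transcripts of the other tissue. Without SI-neg 3 and GB-neg 1 there were 18 higher calls and 1 lower, with a median of 2.20, and without GB-neg 1 alone there were 13 higher calls. The count was 3 when any other library except SI-neg 3 or GB-neg 3 was left out, and most of these omissions also left 1 lower call. The calls of Ascl2, Krt18 and Espn held in each alternative. Espn, an actin-bundling protein of microvilli and sensory bristles, measured 285, 212 and 165 CPM in GB-pos and 3.34, 3.31 and 1.1 CPM in GB-neg, and 328, 480 and 503 CPM in SI-pos and 31.7, 64.1 and 23.1 CPM in SI-neg (interaction 2.94 ± 0.61, edgeR adjusted p = 0.00977).

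Defining tuft genes were among those without a call in all 12 libraries. Dclk1, a kinase that marks tuft cells, measured 6476, 8215 and 7231 CPM in GB-pos and 24.3, 11.3 and 2.5 CPM in GB-neg, and 3321, 3292 and 3162 CPM in SI-pos and 53.4, 53.8 and 13.9 CPM in SI-neg (interaction 2.83 ± 0.95, edgeR adjusted p = 0.0938). Pou2f3, the factor required for tuft cells, measured 975, 1033 and 790 CPM in GB-pos and 11.4, 5.94 and 1.82 CPM in GB-neg, and 879, 1086 and 1184 CPM in SI-pos and 20.3, 19.4 and 11.6 CPM in SI-neg (interaction 1.23 ± 0.66, adjusted p = 0.291). GB-neg 1 was the highest GB-neg library for both. Hmx3, a homeobox gene of the list, was called higher (4.82 ± 0.90, adjusted p = 0.00459), though not with limma-voom (adjusted p = 0.0759), with 114, 61.8 and 51.7 CPM in GB-pos and at most 0.0561 CPM in GB-neg against 37.2, 58.8 and 70.7 CPM in SI-pos and 1.57, 0.2 and 1.09 CPM in SI-neg. Its IL-25+ levels overlapped between the tissues, and its IL-25- level was lower in the gallbladder.

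Lists of neuronal-type (tuft-1) and immune-type (tuft-2) tuft cell genes each had calls in both directions. Each shares members with the tuft identity list, such as Nrgn in tuft-1 and Dclk1 in tuft-2. Their calls were 2 higher and 2 lower of 11 tested and 3 higher and 3 lower of 15 tested, against 3.63% and 5.6% over all genes. The tuft-2 list had 5 higher without SI-neg 3 and GB-neg 1. In the tuft-1 list Nrep was higher, as was Dpysl3 (4.69 ± 1.04, edgeR adjusted p = 0.0146), a cytoskeletal protein of axon growth that fell in the small intestine from 2.64, 5.54 and 1.88 CPM in SI-neg to 0.0755, 0 and 0.649 CPM in SI-pos. In the gallbladder Dpysl3 measured 68, 124 and 96.9 CPM in GB-pos and 57, 66.2 and 31.9 CPM in GB-neg, each GB-pos library above each GB-neg library, with no call in that tissue (adjusted p = 0.33). Its interaction call was lost without GB-pos 2 and GB-neg 2, without the filter on low counts and with the nested replicate block. Basp1, a membrane-bound growth cone protein, was lower. It measured 144, 178 and 203 CPM in SI-pos and 0.178, 0.234 and 0.102 CPM in SI-neg, and 29.5, 48.5 and 25.7 CPM in GB-pos and 1.67, 0.502 and 0.13 CPM in GB-neg (interaction -4.60 ± 0.90, adjusted p = 0.00698). In the tuft-2 list the phosphatase gene Ptpn18 and the membrane channel genes Tmem176a and Tmem176b were lower. Ptpn18 measured 1768, 2030 and 1957 CPM in SI-pos and 340, 317 and 321 CPM in GB-pos, with 32.5 to 60.1 CPM in both IL-25- groups (interaction -2.88 ± 0.27, adjusted p = 5.8e-05). Tmem176a measured 1347, 1666 and 1717 CPM in SI-pos, 49.0, 28.3 and 29.5 CPM in SI-neg, 724, 822 and 666 CPM in GB-pos and 160, 200 and 262 CPM in GB-neg (interaction -3.64 ± 0.35, adjusted p = 5.8e-05). These 3 lower calls held in each alternative. In the tuft-1 list the lower call of Ddc, an amine-forming decarboxylase, was lost without SI-neg 1, SI-pos 1, SI-neg 3, SI-pos 3, GB-pos 1, GB-pos 3 or GB-neg 3.

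**Figure D5:**
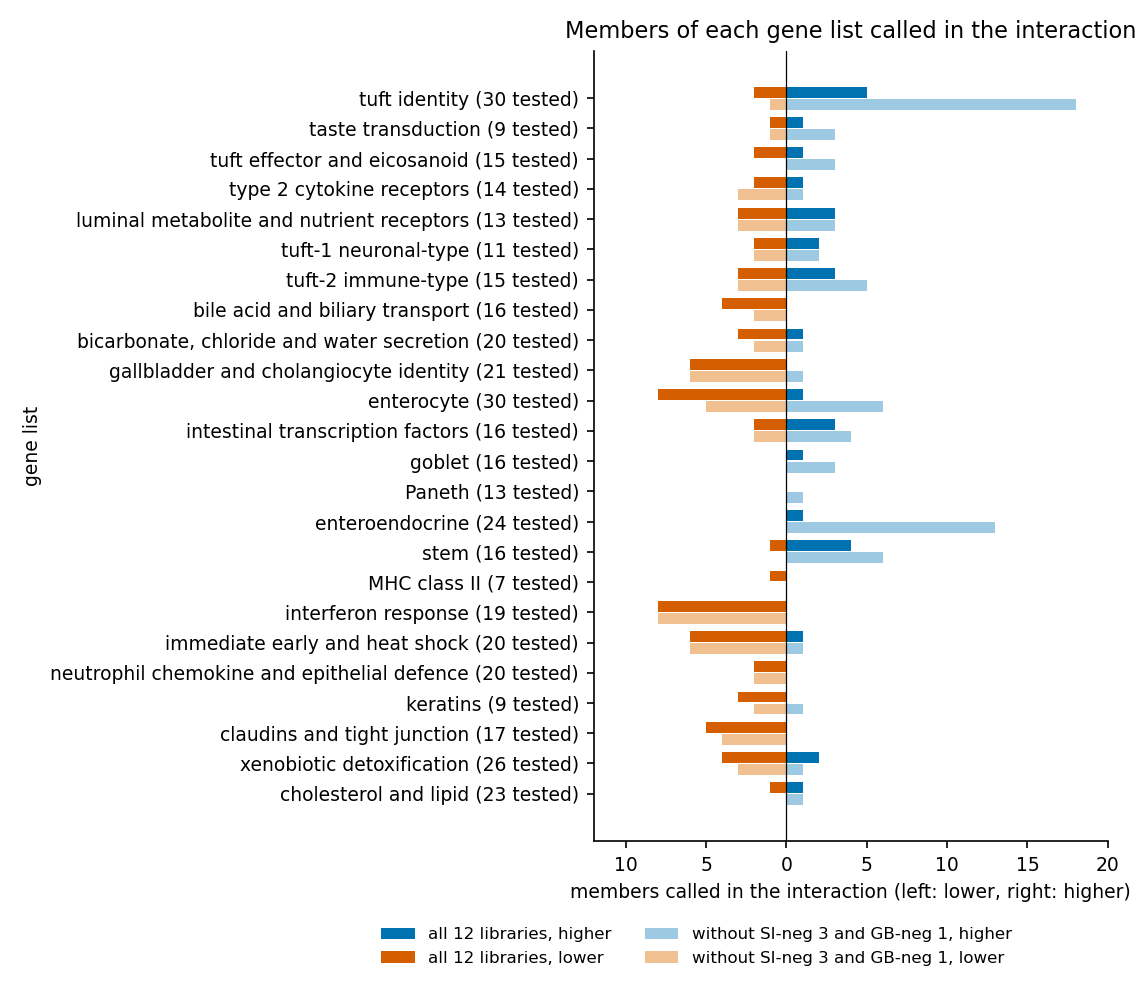
Members of each gene list called higher (right) or lower (left) in the interaction, in all 12 libraries (dark bars) and without SI-neg 3 and GB-neg 1 (light bars), with the number of tested members in brackets. The tuft identity list goes from 5 to 18 higher calls and the enteroendocrine list from 1 to 13, while the interferon response list has 8 lower calls in both, not all of the same genes.

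Lists of enterocyte and enteroendocrine genes also moved with those libraries. Of 30 tested enterocyte genes, 8 were called lower and 1 higher in all libraries (median -2.22), against 5.6% and 3.63% over all tested genes. Without SI-neg 3 and GB-neg 1 there were 5 lower and 6 higher (median 1.06). Without GB-neg 1 alone 7 were higher, and the lower count was 3 without SI-neg 1 and 5 without SI-neg 3 or SI-pos 1. The calls that held in each alternative were Mgam, Dpp4 and Slc2a2, lower, and Cdhr5, higher. Cdhr5, a protocadherin of the brush border, measured 10611, 12015 and 14765 CPM in SI-pos and 1410, 2259 and 1293 CPM in SI-neg, and 2850, 3417 and 2497 CPM in GB-pos and 123, 45.8 and 62.0 CPM in GB-neg (interaction 2.33 ± 0.47, edgeR adjusted p = 0.00708). It rose with the gate in both tissues. Fabp1, a fatty acid binding protein of enterocytes, rose in the small intestine from 514, 1018 and 753 CPM to 5129, 7788 and 7765 CPM, and its gallbladder gates overlapped (interaction -4.45 ± 0.97, adjusted p = 0.0172), a call lost without SI-neg 1.

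Enteroendocrine genes, 24 tested, had 1 call in all libraries (Insm1, higher), against 3.63% higher over all tested genes. The count was 13 without SI-neg 3 and GB-neg 1 and 15 without GB-neg 1 alone. The call of Insm1 was lost when any one of the SI-pos libraries, SI-neg 2, GB-pos 1 or GB-neg 2 was left out, and without GB-pos 3 there were 3 higher calls and 1 lower. DESeq2 called 5 members and limma-voom 6. The summed level of the list was 493 CPM in GB-neg 1 and 11.2 and 11.3 CPM in GB-neg 2 and GB-neg 3, with 24.6 to 42.2 CPM in GB-pos, 204 to 545 CPM in SI-pos and 7810 to 17480 CPM in SI-neg. Chga, a secretory granule protein, measured 150, 268 and 193 CPM in SI-neg and 11.6, 0.177 and 0.0974 CPM in GB-neg, with at most 2.51 CPM in any IL-25+ library. Its interaction of 4.0 ± 2.07 did not pass the test in all libraries (edgeR adjusted p = 0.286). GB-neg 1 was the 1 GB-neg library with a level of Chga above 1 CPM.

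Among markers of cells outside the epithelium, T cell genes (11 tested) had no call by edgeR, DESeq2 or limma-voom and none at an unadjusted p under 0.05. Over all tested genes edgeR called 3.63% higher and 5.6% lower. Pancreatic acinar genes (3 tested) had no call by edgeR or limma-voom and 1 lower call by DESeq2, and 1 was lower at an unadjusted p under 0.05, while 2 were called lower with the nested replicate block. They summed to 293.5 to 374 CPM in GB-neg, 40.5 to 50.4 in GB-pos, 11.2 to 189 in SI-neg and 0.604 to 8.8 in SI-pos, with 8 of the listed genes, Cpa1, Prss1 and Ptf1a among them, at 0 in every library. T cell markers summed to 8.63 to 87.8 CPM in the small intestine and 2.82 to 18.7 CPM in the gallbladder. Myeloid markers summed to 55.7 to 240 CPM in GB-neg and 14.2 to 44.0 CPM in the other groups, with S100a8 at 0 in every library. Csf1r was the 1 called member of 10, at 16.5, 3.37 and 5.46 CPM in GB-neg and at most 3.02 CPM elsewhere (interaction -8.45 ± 2.07, edgeR adjusted p = 0.021), and the call was lost without GB-neg 1, GB-pos 2 or SI-pos 3, while 2 members were called without GB-pos 1. Stromal and endothelial markers summed to 244 to 358 CPM in GB-pos, nearly all of it Tek, the angiopoietin receptor, at 240, 358 and 324 CPM. The endothelial marker Cdh5 was at 0 in every library and Pecam1 had a mean of 0.167 CPM in GB-pos. The interaction of Tek (5.91 ± 1.35, adjusted p = 0.0219) held in 14 of the 22 alternatives and was lost without SI-neg 1, SI-neg 2 or any SI-pos library, and 2 members were called without GB-neg 1. The part of non-epithelial cells in other results was not tested.

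Other gene lists had few calls, set here against shares of 3.63% higher and 5.6% lower over all tested genes. Bile acid and biliary transport genes (16 tested) had 4 lower calls, 2 without SI-neg 3 and GB-neg 1, and 1 to 4 when any one library was left out. Among these, Abcc3, which exports glucuronide and bile salt conjugates, held in each alternative. It measured 424, 405 and 459 CPM in SI-pos and 141, 228 and 147 CPM in SI-neg, with 343 to 442 CPM and overlapping gates in the gallbladder (interaction -1.32 ± 0.28, edgeR adjusted p = 0.0105). Bicarbonate, chloride and water secretion genes (20 tested) had 1 higher call, Kcnn4, and 3 lower, with 2 higher without GB-neg 1 and 2 lower without SI-neg 3 and GB-neg 1. Cholesterol and lipid genes (23 tested) had 1 call in each direction, 2 lower without SI-neg 3 or GB-neg 3 alone and none lower without SI-neg 3 and GB-neg 1 together. Tuft effector and eicosanoid genes (15 tested) had 1 higher and 2 lower calls, and 0 to 1 and 0 to 2 when any one library was left out. Without SI-neg 3 and GB-neg 1 that balance turned to 3 higher and none lower, and DESeq2 called 2 higher and 4 lower. MHC class II genes (7 tested) had 1 lower call, H2-DMb1, which held in 6 of the 22 alternatives and was lost without any one library except GB-pos 2 or GB-neg 2, and also without SI-neg 3 and GB-neg 1 together. Hepatocyte markers (9 tested) had 3 higher calls, Trf and Tat among them, and 2 without that pair. Paneth cell genes (13 tested) had no call by edgeR, DESeq2 or limma-voom and none at an unadjusted p under 0.05, with 2 higher calls without GB-neg 1 and 1 without SI-neg 3 and GB-neg 1. Mitochondrially encoded genes (8 tested) likewise had none, and 1 higher call without GB-neg 3.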

How the data were processed

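Bulk RNA-seq libraries were made from sorted cells with a Nextera XT kit, which keeps no strand, per the labels' protocols, so reads of overlapping or antisense genes cannot be told apart. The submitters' processing notes name STAR 2.7.2b, GRCm38 and DESeq2 1.26. The deposited table holds the authors' whole-number counts per gene and sample, not normalized, for 43432 genes. Of its columns, 11 matched no label and were not used. GENCODE M21 gave symbols and positions for 42462 genes, and the 970 others held at most 0.132% of any library's counts.

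The members and gene lists were chosen with earlier results of these data known. Counts of the 12 labelled libraries (23703449 to 64736650 per library) were fitted in 1 model with edgeR 4.0.16 (filterByExpr with a minimum count of 10, TMM scaling, robust quasi-likelihood test, R 4.3.3), with 1 coefficient per group and no block. CPM are TMM-scaled, and SE is the absolute log2 change over the square root of F. Exact binomial 95% intervals of count ratios cover counting error only, since the reads carry no molecular identifiers. Any 2 replicates of a group differed by far more than sampling noise (smallest chi-square per degree of freedom 45.32). The test was run on simulated counts with a known interaction in 50 genes per size. The changed genes averaged at least 5 CPM, the change was put in GB-pos, and the tissues were otherwise equal within a gate. Recovery of genes with lower levels was not simulated. The test called 0 of 50 at 2-fold, 14 at 4-fold, 27 at 8-fold and 39 at 16-fold with the right sign. It also called 5 unchanged genes. A gene without a call may therefore still differ, also by several fold.

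Named genes were Il25 and, among genes called also without SI-neg 3 and GB-neg 1 and reaching 10 CPM in a group, those with the largest smaller gate effect (6 per direction of reversal), those with the lowest p in each other pattern (2 or 3 each) and up to 3 per list, which gave 88 names. Those named for a gate test passed in 1 tissue alone also needed a group mean of at least 5 CPM in each tissue. Predicted, Y-linked and unnamed genes were left out. Other members of the 32 lists were named where a count was 5 or fewer or to list a count in full, with their values in view. The alternatives, 22 in all, were RLE scaling, DESeq2 1.42.0, limma-voom 3.58.1 with quality weights, no filter and a stricter filter on low counts, a replicate block, the same block nested in tissue, leaving out SI-neg 3 with GB-neg 1, leaving out GB-pos 2 with GB-neg 2, leaving out mitochondrial genes, and leaving out each of the 12 libraries. Promoters came from RefSeq for GRCm38.p6 and matched 67 of the 88 named genes and 1171 of the 1536 called genes. The interferon response motif, and the promoters printed, were chosen after the results were seen. Figures used matplotlib 3.10.9, tables pandas 2.3.3. Some genes are not reported here.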

Additional observations from a re-analysis of the deposited data

Results flagged for a closer look

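Every gene that passes the interaction test has a gate effect that differs between the tissues by a test of the difference itself, so all 1536 such genes qualified for a closer look by construction, among them the 79 and 112 reversed genes and 87 of the 88 named genes, Il25 being the exception. The reversed genes named for the size of their smaller gate effect had interactions of 16.54 (Gsg1l), 14.07 (Apba1), 13.00 (Fxyd6), 11.05 (Unc79), 8.59 (Etv1) and 8.35 (Unc80) on the log2 scale in one direction. In the other direction they were -11.80 (Anxa10), -8.63 (Mx2), -8.29 (ccdc198), -7.81 (H2-Q6), -7.40 (Inf2) and -7.25 (Mmp23). The intestinal IL-25- level of Gsg1l came from SI-neg 1 alone, and H2-Q6 has near-identical copies.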

How the results depend on the processing

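No call was made in the opposite direction under any of the 22 alternatives, and 712 of 1536 held in each. DESeq2 called 2364 genes, 1221 of them higher, and kept 1471 of the calls. The number called was 1050 to 1566 when 1 library was left out (388 to 731 higher, 662 to 855 lower), and 355 were higher without GB-pos 2 and GB-neg 2. Il25, never called, had an interaction of -4.33 to 0.12 with 1 library left out, the latter without GB-neg 1. Reversed genes higher in gallbladder numbered 148 with DESeq2, 127 with limma-voom, 46 without GB-pos 2 and GB-neg 2, and 45 to 89 with 1 library left out. Those lower in gallbladder numbered 72 without SI-neg 3 and GB-neg 1, and 71 to 105 with 1 library left out. Of the 191 reversed genes, 110 were reversed without SI-neg 3 and GB-neg 1, 163 with RLE scaling and 176 with DESeq2. Genes called in the small intestine alone numbered 505 higher and 301 lower with limma-voom, 437 lower with DESeq2 and 114 lower without GB-pos 2 and GB-neg 2, with 211 to 334 higher and 98 to 232 lower when 1 library was left out. Genes called in the gallbladder alone and higher numbered 375 with DESeq2, 124 without GB-pos 2 and GB-neg 2 and 167 to 230 with 1 library left out, and those lower 201 to 264. Genes that rose in both tissues and more in gallbladder numbered 158 with DESeq2, 135 without SI-neg 3 and GB-neg 1 and 50 to 136 with 1 library left out. Those that rose more in small intestine numbered 63 without GB-pos 2 and GB-neg 2 and 76 to 116. Genes that fell more in gallbladder numbered 122 with DESeq2, 43 without SI-neg 3 and GB-neg 1 and 43 to 87, and those that fell more in small intestine 58 with DESeq2, 4 without GB-pos 2 and GB-neg 2 and 12 to 36. Genes with neither gate test passed numbered 67 with DESeq2, 29 with limma-voom, 69 without a filter, 23 with the stricter filter, 11 without GB-pos 2 and GB-neg 2 and 19 to 53. By tissue test, genes that differed in IL-25+ cells alone numbered 852 with DESeq2, 357 without GB-pos 2 and GB-neg 2 and 320 to 532, and in IL-25- cells alone 847 with DESeq2 and 397 to 609. Those that differed in both gates in the same direction numbered 333 with DESeq2 and 130 to 232, and in opposite directions 296 with limma-voom, 109 without GB-pos 2 and GB-neg 2 and 111 to 172. Those that differed in neither numbered 92 with DESeq2, 89 without a filter, 34 without SI-neg 3 and GB-neg 1, 26 without GB-pos 2 and GB-neg 2 and 27 to 58. The cause of these moves was not tested, except that leaving out libraries leaves fewer samples to test.

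Deviations of same-numbered libraries from their group means had correlations of -0.052 to 0.162 between groups. For GB-pos and GB-neg they were 0.094, 0.019 and 0.162 for libraries 1, 2 and 3. With 3 libraries per group these values cannot decide whether the numbers pair the samples, and the labels do not say. With a replicate block 1340 genes were called (533 higher, 807 lower), 72 and 97 were reversed, 16 passed neither gate test and 33 neither tissue test. With the replicate block nested in tissue the count was 1296, with 16 that passed neither gate test, 348 that differed in IL-25+ cells alone, 104 in both gates alike, 32 in opposite directions and 364 in neither. Fitted sizes of genes near 0 counts depend on the prior count, and 3 libraries per group limit which differences can be called.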
